A study of Mus musculus with 6 samples.

Results

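Alpha and beta crystallins are the bulk proteins of the eye lens, and their transcripts were measured here by RNA sequencing of the wild-type mouse retina. The 8 genes described are Cryaa and Cryab, which encode the alpha crystallins, and Cryba1, Cryba2, Cryba4, Crybb1, Crybb2 and Crybb3, which encode beta crystallins. They were chosen by gene symbol, and all 8 were found among the 15465 genes of the tables. Crygc, a gamma crystallin, Lim2, a lens fibre membrane protein, and Mip, the lens water channel, served as lens rows for comparison only. The retinas came from C57BL6/J mice of wild-type genotype, with no treatment or age among the labels. Each library was prepared from a pool of 5 mice, and 6 samples formed 3 biological replicates with 2 technical replicates each. Each biological replicate had 1 column of values, so n was 3. The sample titles were followed in this, and the source labels number the samples differently, so the independence of the pools and every SD and p-value rest on the titles. With 1 group there was no treated and control side, and the comparisons are between genes and between pools.

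The alpha crystallins belong to the small heat shock proteins, chaperones that bind unfolding proteins and keep them in solution. The beta crystallins are mainly structural. They share a double Greek-key fold with the gamma crystallins and pack densely, which gives the lens its refractive index, and are divided by charge into acidic members (Cryba genes) and basic members (Crybb genes). Transcripts of several crystallins are known from retinal neurons and glia as well, and the lens lies next to the retina in the eye.

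The start regions of the genes show what most of the family shares outside the values. RefSeq windows of the 250 bases before the transcription start (build GRCm38.p6) were found for 7 of the 8 genes, all but Cryab. The letters TGCTGA, the core of the site bound by large Maf proteins, the transcription factors of lens fibre genes, were searched on both strands. They stood in 6 of the 7 windows, those of Cryaa, Cryba1, Cryba2, Cryba4, Crybb1 and Crybb3, and in the windows of Crygc, Lim2 and Mip. Of the windows of all 27025 genes with one, 15.8% held these letters, and of those of the 10854 genes that were also in the tables, 13.0% did. Cryba4 held them 3 times, and the Crybb2 window did not hold them. A TATA box (TATAAA) began 23 bases before the start in Cryba1 and 30 bases before it in Crybb1. In the 20 to 40 bases before the start, on the gene's own strand, 2.2% of all windows had one. The core of a heat shock element (GAANNTTC) was in 0 of the 7 windows, against 6.8% of all windows. CCAAT stood in the windows of Cryba1 and Cryba4, against 34.5% of all windows. No 2 of these motifs overlapped in the windows shown. A match of letters is a description and not evidence of binding. The windows of the 2 most abundant genes, of Cryba1 with both a Maf core and a TATA box, and of the neighbouring genes Cryba4 and Crybb1 are shown, 5′ to 3′ on the gene's strand, with these 4 motifs in capitals on either strand. They lie at chr17:31677681-31677930 (plus strand) for Cryaa, chr5:113070118-113070367 (minus strand) for Crybb2, chr11:77725294-77725543 (minus strand) for Cryba1, chr5:112252519-112252768 (minus strand) for Cryba4 and chr5:112255570-112255819 (plus strand) for Crybb1.
Cryaa: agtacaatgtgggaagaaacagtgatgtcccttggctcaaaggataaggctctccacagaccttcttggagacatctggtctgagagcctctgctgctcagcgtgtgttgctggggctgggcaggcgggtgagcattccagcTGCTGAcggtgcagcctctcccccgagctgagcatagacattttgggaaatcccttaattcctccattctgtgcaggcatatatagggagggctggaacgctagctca
Crybb2: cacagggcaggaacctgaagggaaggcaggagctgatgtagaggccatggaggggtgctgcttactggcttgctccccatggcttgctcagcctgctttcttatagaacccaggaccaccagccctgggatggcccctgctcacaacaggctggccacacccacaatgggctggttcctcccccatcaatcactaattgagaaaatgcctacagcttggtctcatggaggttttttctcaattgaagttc
Cryba1: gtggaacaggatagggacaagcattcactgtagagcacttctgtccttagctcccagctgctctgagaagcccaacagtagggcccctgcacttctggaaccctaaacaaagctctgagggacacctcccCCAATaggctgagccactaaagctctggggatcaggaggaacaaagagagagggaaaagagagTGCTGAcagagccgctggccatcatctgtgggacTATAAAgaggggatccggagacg
Cryba4: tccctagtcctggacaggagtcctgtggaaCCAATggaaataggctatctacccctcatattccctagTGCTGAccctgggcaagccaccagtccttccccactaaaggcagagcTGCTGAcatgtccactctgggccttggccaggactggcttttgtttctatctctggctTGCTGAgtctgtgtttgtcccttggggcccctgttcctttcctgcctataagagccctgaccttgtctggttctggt
Crybb1: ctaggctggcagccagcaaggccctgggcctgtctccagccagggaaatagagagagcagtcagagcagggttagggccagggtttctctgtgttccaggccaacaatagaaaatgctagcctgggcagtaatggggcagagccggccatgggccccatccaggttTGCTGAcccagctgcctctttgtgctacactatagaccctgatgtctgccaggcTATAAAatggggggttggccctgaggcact

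Cryaa and Crybb2 led the family and were among the 10 most abundant genes of the retina, with ranks 6 and 8 of 15465 by mean. Values as deposited were taken as RPKM, reads scaled to transcript length and to the total of mapped reads. This unit is inferred from the values, since no header names it. Comparison between genes of different length, and so the order and shares of the genes, rests on it. Cryaa, the alpha A chaperone subunit, had 2057.64, 1568.81 and 1394.64 RPKM in replicates 1, 2 and 3, a mean of 1674 ± 344 RPKM (SD, n = 3). Its highest value was in replicate 1 and its lowest in replicate 3. Cryab, the alpha B subunit, which is also made in muscle, heart and glia, had 179.07, 188.09 and 147.03 RPKM, a mean of 171 ± 21.6 RPKM. Cryaa exceeded Cryab in each pool, between 8.34-fold and 11.5-fold, with a mean log2 ratio of 3.28 ± 0.23 (SD, n = 3), a factor of 9.68. An exact two-sided sign-flip test over 3 pools gives p = 0.25 here, which is the smallest it can give.

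Among the beta crystallins the basic Crybb2 stood first. It had 1644.96, 1206.18 and 1640.37 RPKM in replicates 1, 2 and 3, a mean of 1497 ± 252 RPKM, with replicate 2 below replicates 1 and 3. Crybb3, also basic, had 426.19, 356.04 and 356.55 RPKM, a mean of 380 ± 40.4 RPKM. Crybb1, the third basic gene and the lowest of the 8, had 170.65, 120.64 and 136.57 RPKM, a mean of 143 ± 25.5 RPKM. Crybb2 therefore took 74.0% ± 2.66 of the basic beta crystallin RPKM. The basic genes were ordered Crybb2, Crybb3, Crybb1 in every pool, and their values did not overlap.

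The acidic genes were closer to each other. Cryba1, from which the A3 and A1 chains are both translated, had 594.3, 559.16 and 573.25 RPKM in replicates 1, 2 and 3, a mean of 576 ± 17.7 RPKM. Its values as deposited spanned 1.06-fold, the smallest span of the 8 genes. Cryba4 had 340.04, 266.64 and 285.66 RPKM, a mean of 297 ± 38.1 RPKM, and Cryba2 had 310.7, 276.27 and 251.53 RPKM, a mean of 280 ± 29.7 RPKM. The values of Cryba4 and Cryba2 overlapped, and those of Cryba1 lay above both. Cryba1 took 50.0% ± 2.04 of the acidic RPKM.

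**Figure D1:**
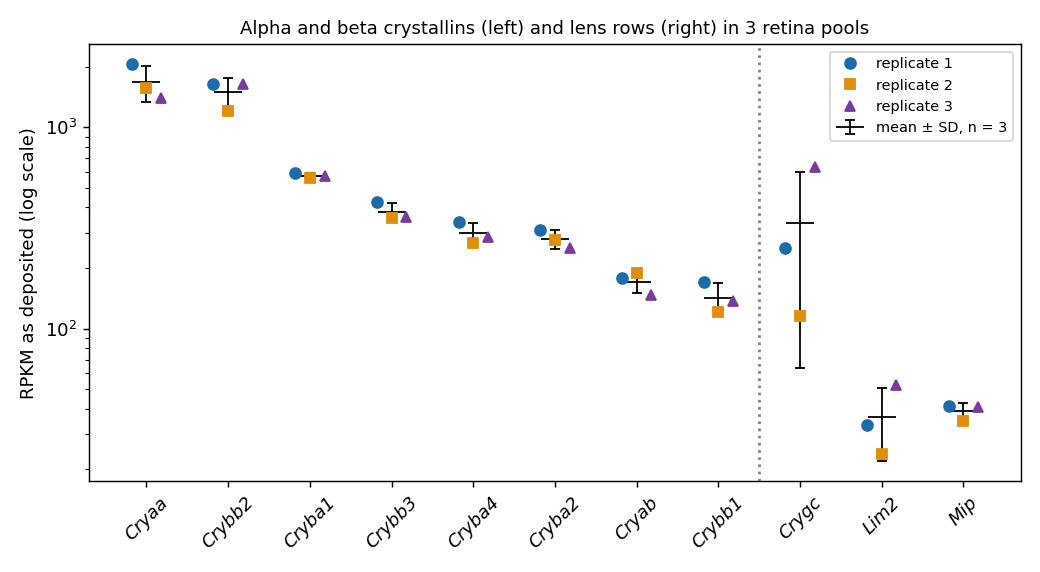
RPKM as deposited (log axis) of the 8 alpha and beta crystallin genes in order of mean, left of the dotted line, and of Crygc, Lim2 and Mip, right of it; symbols are the 3 biological replicates and bars the mean ± SD. The 8 genes run from 1674 RPKM for Cryaa to 143 RPKM for Crybb1, and the replicates of Crygc lie farther apart than those of any of the 8.

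In order of mean level the 8 genes were Cryaa, Crybb2, Cryba1, Crybb3, Cryba4, Cryba2, Cryab and Crybb1. All 28 pairs were compared within pools, and 26 had the same order in all 3. The exceptions were neighbours in the order. Cryaa over Crybb2 had a mean log2 ratio of 0.16 ± 0.34 (SD, n = 3) and was above 0 in 2 of 3 pools, and Cryba4 over Cryba2 had 0.09 ± 0.12, also above 0 in 2 of 3. Cryab over Crybb1 had 0.27 ± 0.32, above 0 in 3 of 3 pools but smaller than its SD. These 3 neighbouring pairs do not differ beyond their spread. The other neighbours differed by more than it, with 1.36 ± 0.22 for Crybb2 over Cryba1, 0.61 ± 0.11 for Cryba1 over Crybb3, 0.35 ± 0.05 for Crybb3 over Cryba4 and 0.71 ± 0.13 for Cryba2 over Cryab. The exact sign-flip test gave p = 0.25 for the 26 pairs of constant order (0.269 after Benjamini-Hochberg adjustment over the 28 pairs) and p = 0.5 for the other two (adjusted 0.5), so 3 pools could not pass a threshold of 0.05.

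Together the 8 genes summed to 5724, 4542 and 4786 RPKM in replicates 1, 2 and 3, or 2.07%, 1.501% and 1.92% of all RPKM. The beta crystallins held 63.3% ± 3.85 of the family's RPKM and the alpha crystallins 36.7% ± 3.85 (SD, n = 3). Within the beta genes the basic members held 63.5% ± 2.76 and the acidic members 36.5% ± 2.76. The share of Cryaa was 36.0%, 34.5% and 29.1% of the family in replicates 1, 2 and 3, and that of Crybb2 28.7%, 26.6% and 34.3%. Crybb2 thus led in replicate 3 and Cryaa in replicates 1 and 2. The share with the smallest SD was that of Cryba4, with 5.94%, 5.87% and 5.97%. Crybb3 held 7.45%, 7.84% and 7.45%, and Crybb1 held 2.98%, 2.66% and 2.85%.

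**Figure D2:**
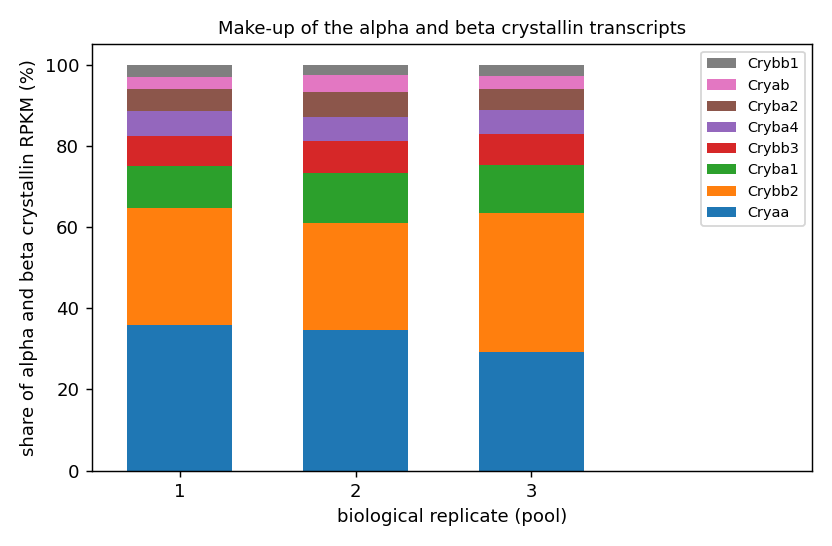
Stacked bars give each gene's percentage of the summed RPKM of the 8 alpha and beta crystallin genes in each of the 3 biological replicates. Cryaa (33.2% ± 3.59) and Crybb2 (29.9% ± 3.98) hold most of each bar, and among the other 6 the order changes only in replicate 2, where Cryba2 stands above Cryba4.

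Ratios within the family moved between 1.07-fold and 1.74-fold from pool to pool. The SD of the log2 ratio over 3 pools had a median of 0.18 over the 28 pairs, with a range between 0.05 and 0.41. The steadiest pair was Crybb3 to Cryba4, whose ratio moved 1.07-fold between pools, and the least steady Crybb2 to Cryab, which moved 1.74-fold. Cryba4 to Crybb1 moved 1.11-fold. These genes are neighbours on chromosome 5, where Crybb2 and Crybb3 also lie next to each other, and the ratio of that second pair moved 1.36-fold. Pairs of an alpha or beta gene with one of the 6 gamma crystallins Cryga to Crygf had a median SD of 1.55 over 48 pairs, and the lowest of these, 1.03, was above the highest of the 28. These 6 are the gamma genes that varied between pools, as given below, so the wider spread of the 48 pairs follows from that choice. Ratios to Crygs, another gamma crystallin gene, had SDs between 0.10 (Crybb2) and 0.41 (Cryab). Those to Mip had SDs between 0.10 (Cryba1) and 0.29 (Cryab). Steady ratios were therefore not particular to pairs within the family. Pairs among the 6 gamma genes had a median SD of 0.28 over 15 pairs. Pairs that share a gene are not independent, so no test was made over them. The gamma genes are close paralogs and their split of reads is uncertain.

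Steadiness of each gene was tested by setting its variance over pools against the variance limma expects at its level, on log2(RPKM + 0.1) after scaling between pools, with Benjamini-Hochberg adjustment over the 12562 genes that averaged at least 1 RPKM. With the robust prior 0 of the 8 genes varied between pools (adjusted p between 0.821 and 0.993), against 5.41% of all genes tested. At an unadjusted p under 0.05 the count was also 0 of 8, against 8.32%. The prior that is not robust called 0 of all 12562 genes, so its 0 of 8 says nothing about the family. Without the symbols described next 0 of 8 were called, against 0.936% of 10474 genes, and the smallest adjusted p was 0.708, for Crybb1 (unadjusted p = 0.0342). Crybb2 also had an unadjusted p under 0.05 there, of 0.0424. The symbols left out begin with another symbol followed by a digit, or are such a shorter symbol, and their rows often differ many-fold between pools. They are called digit-extended symbols. None of the 8 genes has such a symbol. A missed threshold does not show that a gene is constant.

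The SD of the scaled log2 values was 0.10 for Cryab, 0.15 for Cryba1, 0.16 for Cryba2, 0.21 for Crybb3, 0.25 for Cryba4, 0.30 for Cryaa, 0.33 for Crybb1 and 0.37 for Crybb2. The median of the 8 was 0.23, against 0.15 over all genes tested and 0.16 over the 326 genes that averaged at least 100 RPKM. Of those 326 genes, 94.2% had a smaller SD than Crybb2 and 27.0% a smaller SD than Cryab. On values as deposited the median of the 8 was 0.18, against 0.19 over all genes tested and 0.22 over the 326.

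**Figure D3:**
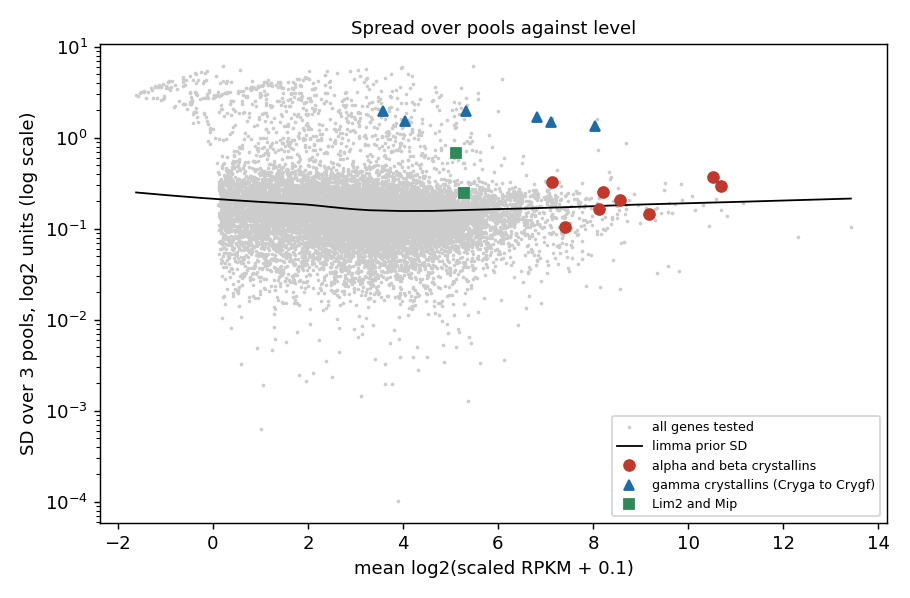
SD over 3 pools (log2 units, log axis) against mean scaled log2(RPKM + 0.1) for all genes tested (grey), the alpha and beta crystallins (red), the gamma crystallins Cryga to Crygf (blue) and Lim2 and Mip (green); the line is the prior SD of limma. The red points lie between 0.10 and 0.37 around the line, and the lowest blue point, Crygc, lies at 1.35. Crygs (0.35) and Crygn (0.46), gamma crystallin genes that were not called, are not marked.

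The lens rows for comparison did not share one behaviour. Crygc had 250.19, 115.12 and 634.95 RPKM in replicates 1, 2 and 3, a mean of 333 ± 270 RPKM, and varied between pools (adjusted p = 0.00209, limma with the robust prior). Lim2 had 33.1, 23.93 and 52.28 RPKM, a mean of 36.4 ± 14.5 RPKM, and varied as well (adjusted p = 0.0426, limma). Mip had 41.38, 34.95 and 40.77 RPKM, a mean of 39.0 ± 3.55 RPKM, and was not called (adjusted p = 0.993, limma). All 3 were lowest in replicate 2, and Crygc and Lim2 were highest in replicate 3. The call of Crygc was lost without replicate 3 (adjusted p = 0.0561, limma) and with the prior that is not robust (0.306), while leaving out digit-extended symbols gave 5.89e-10. That of Lim2 held with a pseudocount of 1 and without digit-extended symbols, and was lost under the other 8 settings tried, with adjusted p between 0.0573 and 0.698 (limma).

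Against these rows the family kept different ratios. The median of the 8 genes had a log2 ratio to Mip of 3.11 ± 0.13 (SD over 3 pools), an 8.63-fold excess that moved 1.18-fold between pools. Against Lim2 it stood at 3.28 ± 0.59 and moved 2.14-fold. Against Crygc it stood at 0.61, 1.45 and -0.99 in replicates 1, 2 and 3, so that the median of the 8 was above Crygc in 2 pools and below it in replicate 3. The mean of 0.35 ± 1.24 is smaller than its SD, and without replicate 2 it was -0.19. Cryaa and Crybb2 were above Crygc in all 3 pools, by 13.6-fold at most for Cryaa and 10.5-fold at most for Crybb2, both in replicate 2. Whether alpha and beta genes vary less than Crygc was not tested as a difference.

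A small movement shared by most of the family was seen after scaling. Centred on each gene's mean, the 8 genes averaged 0.20, -0.22 and 0.02 on the log2 scale in replicates 1, 2 and 3. Replicate 2 was the lowest pool for 7 of 8 genes, all but Cryab, against 34.4% of all genes tested, and on values as deposited for 5 of 8, all but Cryaa, Cryba2 and Cryab, against 14.4%. The highest pool was replicate 1 for 6 of 8 after scaling, against 30.2%, and for 7 of 8 as deposited, all but Cryab, against 19.5%. Of the 326 genes that averaged at least 100 RPKM, replicate 2 was lowest for 74 after scaling and 37 as deposited. Replicate 1 was highest for 131 of these 326 after scaling and 71 as deposited. The pool medians of the 8 genes spanned 0.43 on the log2 scale after scaling and 0.28 as deposited. None of these movements was called for a gene, as given above.

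**Figure D4:**
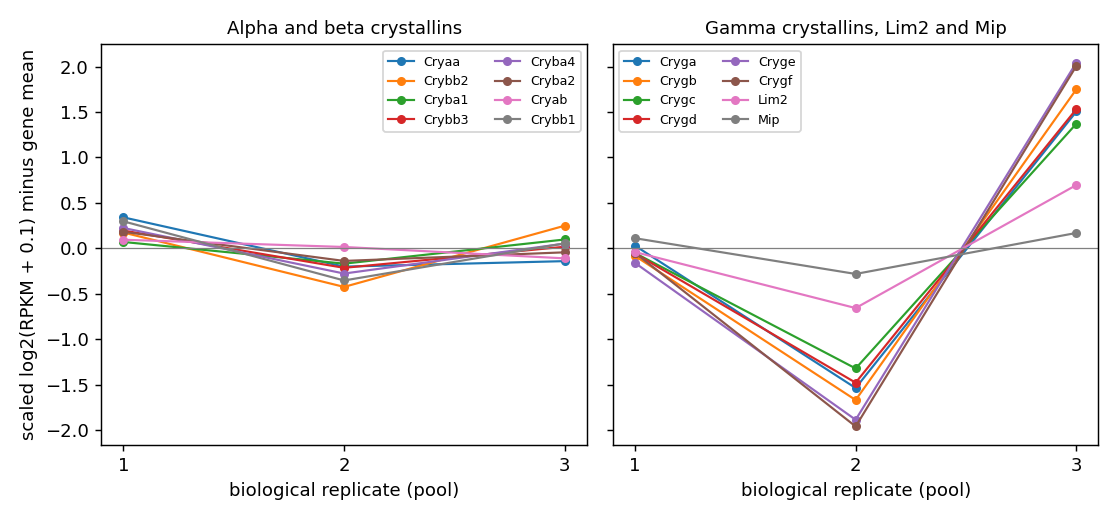
Scaled log2(RPKM + 0.1) minus each gene's mean for the 3 biological replicates, with the 8 alpha and beta crystallins at left and Cryga to Crygf, Lim2 and Mip at right on the same axis; lines only join the values of a gene, as pools have no order. At left the values stay between -0.42 and 0.34, with replicate 2 lowest for 7 of 8 genes (5 of 8 on values as deposited), while at right Crygc runs from -1.32 to 1.37.

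Other lens transcripts moved with the pools in part. Of 10 lens fibre genes, 9 were tested and 8 of these were lowest in replicate 2 after scaling, against 34.4% of all genes tested. As deposited 7 of 9 were, against 14.4%. The highest pool after scaling was replicate 3 for 7 of these 9, 2 of the 8 alpha and beta genes and 4406 of 12562 genes tested. As deposited it was replicate 3 for 6 of 9, 0 of 8 and 2035 of 12562. The summed level of the 10 lens fibre genes was 152, 111 and 246 RPKM in replicates 1, 2 and 3, and none was at 0 in all pools. Lim2, Bfsp1, Lenep, Lgsn and Birc7 varied between pools (5 of 9, limma), against 5.41% of all genes tested, with the limit on Lim2 given above. Without digit-extended symbols Bfsp2 was called as well (6 of 9, against 0.936%). Bfsp1, a beaded filament protein, had 14.1, 5.78 and 29.76 RPKM. Of the 8 gamma crystallin genes tested, 6 varied, all of Cryga to Crygf, against 5.41% of all genes tested. Without digit-extended symbols the same 6 were called, against 0.936%. All 6 calls were lost with the prior that is not robust (adjusted p between 0.227 and 0.306, limma). Crygs, a gamma-related crystallin made late in lens growth, had 333.82, 274.91 and 377.76 RPKM and was not called (adjusted p = 0.818, limma). The sum of the 8 alpha and beta genes ranged 1.26-fold between pools, while Cryga to Crygf summed to 549, 229 and 1603 RPKM, a 6.999-fold range. That second sum holds only the gamma genes called as varying. With Crygs and Crygn included, the 8 gamma genes summed to 890, 514 and 1985 RPKM. The part of lens tissue in the levels of the 8 genes was not tested, and in these bulk samples fewer cells of a type and less RNA per cell cannot be told apart.

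The relatives and regulators described next had lower means than any of the 8 genes. The gamma crystallins, also relatives, did not all lie lower. Crygc had a mean of 333 RPKM and Crygs of 329 RPKM, against 143 RPKM for Crybb1. Among the small heat shock proteins, the chaperone family of the alpha crystallins, 6 of 7 listed genes were in the tables. Of these 4 were tested and 0 varied by limma, against 5.41% of all genes tested. At an unadjusted p under 0.05 there were 2 of 4, against 8.32%. Hspb6 led the list with a mean of 61.6 ± 9.13 RPKM, ahead of Hspb8 with 6.12 ± 1.75 and Hspb1 with 3.0 ± 1.13. Cryab had 171 RPKM on average, while Hspb2, the gene next to it, had 1.98, 2.46 and 0.98 RPKM in replicates 1, 2 and 3. Of 6 further genes with crystallin-type names, 5 were tested and 0 varied by limma, against 5.41% of all genes tested. At an unadjusted p under 0.05 there were 0 of 5, against 8.32%. Crym, a thyroid hormone binding protein of neural tissue, led them with 40.4 ± 8.29 RPKM. Among the lens transcription factors 1 of 12 tested was called, against 5.41% of all genes tested. This was Maf, with 8.31, 89.1 and 63.59 RPKM. Its symbol is digit-extended and its row is less certain. Without such symbols 1 of 9 was called, against 0.936%. This was Foxe3, which acts in the lens epithelium, with 8.54, 7.96 and 3.7 RPKM (adjusted p = 0.00907, limma). Pax6, the master regulator of eye development, had 54.3 ± 6.38 RPKM and Mafg 29.2 ± 1.3. Of 8 heat shock factors and inducible chaperones, 1 varied, against 5.41%, namely Dnajb1, also with a digit-extended symbol. Without such symbols 0 of 7 were called, against 0.936%.

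Protein-coding genes next to the family were mostly low. Of the neighbours on either side that are no member, 10 were in the tables, with means between 0.02 RPKM for Fev, next to Cryba2, and 15.4 RPKM for Myo18a, next to Cryba1. Their median was 3.14 RPKM, beside 9.06 RPKM over the 12562 genes that averaged at least 1 RPKM, a floor that Fev misses. Exons of Cryaa overlap an antisense transcript over 13.2% of their bases, those of Cryab overlap Hspb2 on the other strand over 17.0%, and those of Mip an antisense gene over 57.04%, in GENCODE M21. Strand use in counting is not given in the sources used here, so reads of these partners cannot be told apart. Exons of the 6 beta genes overlap no other gene there.

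The 5 genes whose centred values over the 3 pools came closest to the family's mean pattern were AW555464, Acot11, Sall3, Btbd11 and B4galt7, by Euclidean distance of scaled log2 values. Their distances were between 0.0112 and 0.0125, and the distance at rank 100 of 12554 genes was 0.0528. The likeness rests on 3 pools. Among the lens rows, Mip lay at a distance of 0.181, Lim2 at 0.838 and Crygc at 1.76.

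The tissue label was checked against marker lists. The 10 rod genes had medians of 1045, 1247 and 959 RPKM in replicates 1, 2 and 3. By limma 0 of 10 varied, against 5.41% of all genes tested, with 0 at an unadjusted p under 0.05, against 8.32%. The 10 Muller glia genes had medians of 204, 241 and 183 RPKM, and 0 of 10 varied by limma, against 5.41%. At an unadjusted p under 0.05 there was 1 of 10, against 8.32% of all genes tested. Pigment cell genes had summed levels of 566, 540 and 311 RPKM, cornea genes 19.9, 26.5 and 12.1 RPKM, and muscle genes 8.29, 23.7 and 5.89 RPKM. Of those tested, 4 of 10 pigment cell genes, 3 of 4 cornea genes and 2 of 4 muscle genes varied by limma, against 5.41% of all genes. Among the called genes Rpe65 and Krt12 have digit-extended symbols. Without such symbols 4 of 9, 2 of 3 and 3 of 4 were called, against 0.936%. As deposited, replicate 3 had the lowest sum in these 3 lists and the highest in the lens fibre list. The rod and Muller glia lists also had their lowest sums there, and 6859 of 12562 genes tested had their lowest value there. The pool with the highest alpha and beta crystallin sum was replicate 1.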

How the data were processed

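The 3 tables hold 1 column each for the biological replicates of wild-type retina. The deposited values were taken as RPKM made by the authors, which is inferred from the values, since no header names the unit. RPKM and FPKM cannot be told apart. Multiplied by transcript length in kb, they summed to 785335, 828466 and 728590 in replicates 1, 2 and 3, under the bound of RPKM. Per the submitters' processing notes the tools were GSNAP and HTSeq and the build mm9, with no version. Neither the annotation nor any row filter is stated there. Read depth is unknown, because low values showed no steps of whole reads, so no interval or detection floor is given.

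From the 15468 rows, 3 symbols on 2 identical rows were kept once, which left 15465 genes. Values were scaled between pools with a trimmed mean of log ratios, leaving out 30% at each end by ratio and 5% at each end by mean, with factors of 0.984, 1.09 and 0.931. A pseudocount of 0.1 was added before log2, which understates differences of low genes. Variances were tested with limma 3.58.1 (R 4.3.3) by an F test against the robust trended prior. The test was also run on data simulated at the means and prior SDs fitted to the real values. Transcript lengths (GENCODE M21) covered 98.5% of genes. Ratios and shares used values as deposited, and figures used matplotlib 3.10.9.

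The 8 genes, the lists and the tests were chosen with earlier results of these data known. Genes named are the 8, the lens rows, called or leading list members, gene neighbours and the 5 nearest patterns. The motifs were chosen from background knowledge after the values were seen. Alternatives were another prior, pseudocount, filter, scaling and gene set, multiplication by length, and leaving out each replicate.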

Additional observations from a re-analysis of the deposited data

How the results depend on the processing

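Of the 8 alpha and beta crystallins, 0 varied between pools under all 10 alternatives, of which 1 called no gene at all. The number of all genes called (679) was 0 with the prior that is not robust, 98 without digit-extended symbols, 48 with both changes (chosen after seeing the data), and 302 to 467 when 1 replicate was left out. At the prior that is not robust, 704 genes had an unadjusted p under 0.05. Multiplying by transcript length gave log2 ratios of 3.63 for Cryaa to Cryab, 0.62 for Cryaa to Crybb2, 0.26 for Cryba2 to Cryab and 1.67 for the family median to Mip, a beta share of 54.3% and shares of 42.3% for Cryaa, 9.15% for Cryba1, 6.24% for Crybb3, 4.71% for Cryba4, 4.09% for Cryba2 and 2.54% for Crybb1, by the construction of that setting. With a replicate left out, the log2 ratio of the family median to Crygc ran from -0.19 (without replicate 2) to 1.03, the median SD of the 8 genes from 0.14 (without replicate 2) to 0.32, and the span of their pool medians from 0.18 (without replicate 2) to 0.42. It was 0.26 without replicate 1, and 0.28 without scaling. What caused these changes was not tested. The other 101 alternative values kept their direction and stayed within 1 SD, or within 1.5 times for counts and spreads. Depth is unknown and 3 pools limit every test.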
